A study of Mus musculus with 15 samples.

Results

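Bone morphogenetic protein (BMP) genes and their known target genes were followed in primary mouse hepatocytes made to express each of the 4 isoforms of FXRα, a bile acid receptor of the nuclear receptor family. The group holds 10 genes: the ligands Bmp2, Bmp4, Bmp6 and Bmp7, and the target genes Id1, Id2, Id3, Smad6, Smad7 and Hamp. A gene was taken where a probe set carried its symbol alone, which gave 11 probe sets of 35556 in the table and 10 genes of the 18820 measured. Each gene was read from its brightest probe set, and Bmp7 alone had another, dimmer one. Bmp2 and Bmp7 were chosen by their differences from GFP in earlier results of these arrays, so the values of those 2 ligands are given as a description, with no test. The other 8 genes were taken for their role in the pathway, and their tests were fitted over all genes.

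The 15 arrays fall into 5 groups of 3, named after the adenovirus the cells received: FXRα1, FXRα2, FXRα3, FXRα4 and the GFP control. Hepatocytes came from livers of male C57BL/6J mice by collagenase perfusion and a Percoll gradient, were exposed to virus overnight, then spent 24 h without dexamethasone and insulin, and gave total RNA 36 h after transduction. The 4 isoform viruses carry a human FXR variant plus GFP driven by its own CMV promoter, and the control virus carries GFP alone, so adenovirus and GFP are shared by all 5 groups. The age of the mice is not given in the sources used here. As background, FXRα1 and FXRα3 hold a short MYTG insert beside the DNA-binding domain, FXRα2 and FXRα4 lack it, and FXRα3 and FXRα4 have the longer N-terminus. The mouse probe sets do not measure the human transgenes, so the amount of each isoform made was not checked here. Whether the 3 arrays of a group stem from different mice or dishes is in no label, so p-values reflect only how far these samples vary, and that variation may be technical.

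BMPs are secreted ligands that bring type I and type II receptor kinases together at the cell surface. The receptors phosphorylate Smad1, Smad5 and Smad9, which join Smad4 and enter the nucleus to switch on early target genes. Among these are the Id genes, whose helix-loop-helix proteins lack a DNA-binding region and tie up other bHLH factors, and Smad6 and Smad7, the inhibitory Smads that feed back on the pathway. In liver, Bmp6 and Bmp2 are known mainly from sinusoidal endothelial cells, and they act on hepatocytes to drive Hamp, the gene of the iron hormone hepcidin.

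RefSeq promoter entries (GRCm38.p6) were found for 6 of the 10 genes, namely Bmp4, Bmp6, Hamp, Id2, Id3 and Smad6. The 250 bases before the start of 3 target genes are shown, because they hold letters known from BMP-responsive promoters. Capitals mark matches on either strand to GGCGCC (a GC-rich Smad1 motif), CAGAC (a Smad motif) and TTCNNNGAA (a STAT motif). None of the matches overlaps another. The sequences run 5′ to 3′ on the gene's own strand, at chr7:30944030-30944279 (minus) for Hamp, chr12:25096093-25096342 (minus) for Id2 and chr4:136143572-136143821 (plus) for Id3.
Hamp: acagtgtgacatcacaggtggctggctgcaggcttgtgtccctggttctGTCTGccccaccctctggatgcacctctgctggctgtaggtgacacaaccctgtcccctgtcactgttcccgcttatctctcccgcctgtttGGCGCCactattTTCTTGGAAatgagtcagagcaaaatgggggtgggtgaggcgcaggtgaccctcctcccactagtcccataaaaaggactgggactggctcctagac
Id2: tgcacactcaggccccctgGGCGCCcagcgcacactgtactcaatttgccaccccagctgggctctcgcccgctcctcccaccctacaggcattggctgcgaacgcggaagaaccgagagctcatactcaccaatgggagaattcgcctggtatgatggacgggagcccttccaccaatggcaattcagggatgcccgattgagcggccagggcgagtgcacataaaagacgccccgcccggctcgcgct
Id3: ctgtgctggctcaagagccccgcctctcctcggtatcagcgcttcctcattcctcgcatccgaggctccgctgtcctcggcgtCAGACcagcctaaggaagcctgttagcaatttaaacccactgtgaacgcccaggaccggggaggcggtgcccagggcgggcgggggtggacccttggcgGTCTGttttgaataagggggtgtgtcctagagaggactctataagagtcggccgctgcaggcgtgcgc
Hamp held all 3 motifs, with GGCGCC 109 to 104 bases before the start and the STAT motif 97 to 89 bases before it. Id2 held GGCGCC 231 to 226 bases before the start. Id3 held CAGAC 167 to 163 bases before the start and its complement GTCTG 68 to 64 bases before it. Among the promoters not shown, the target gene Smad6 and the ligand gene Bmp4 held none of the 3 motifs. The ligand gene Bmp6 held CAGAC 119 to 115 bases before the start. Of 32851 RefSeq promoters of the same length, 9.59% held GGCGCC, 42.2% CAGAC and 7.02% TTCNNNGAA. The classical FXR site, an inverted repeat of the AGGTCA half-site with 1 base between, was found in its exact form in 2 promoters of the 32851 and in none of the 6. A match describes these letters and is no evidence of binding.

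Values are the deposited log2 values. They ran from 1.93 to 13.8 over the table, array medians lay between 4.92 and 5.01, and over genes arrays correlated at 0.997 to 0.999 within groups and 0.985 to 0.998 between groups. The median gene averaged 5.73, and the table holds no detection calls. Of the 10 genes, Hamp and Smad6 averaged below that median, at the percentiles 41.6 and 44.9 of all genes, and Id2 was the highest, at 79.9. The summed linear level of 9 hepatocyte markers was 24304 to 27525 on isoform arrays, against 23901 to 25098 on GFP arrays. Single markers moved within it: Hnf4a rose by 1.09, 1.54, 0.67 and 0.86 with FXRα1 to FXRα4, and Tat fell by 0.65, 1.28, 0.81 and 1.44. Changes are stated on the deposited scale. Over the 18820 genes, as opposed to all probe sets, array medians ran from 5.60 to 5.91. Centring every array on that median over genes would lower the differences from GFP, in the median over genes, by 0.105, 0.221, 0.039 and 0.212 for FXRα1 to FXRα4.

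**Figure D1:**
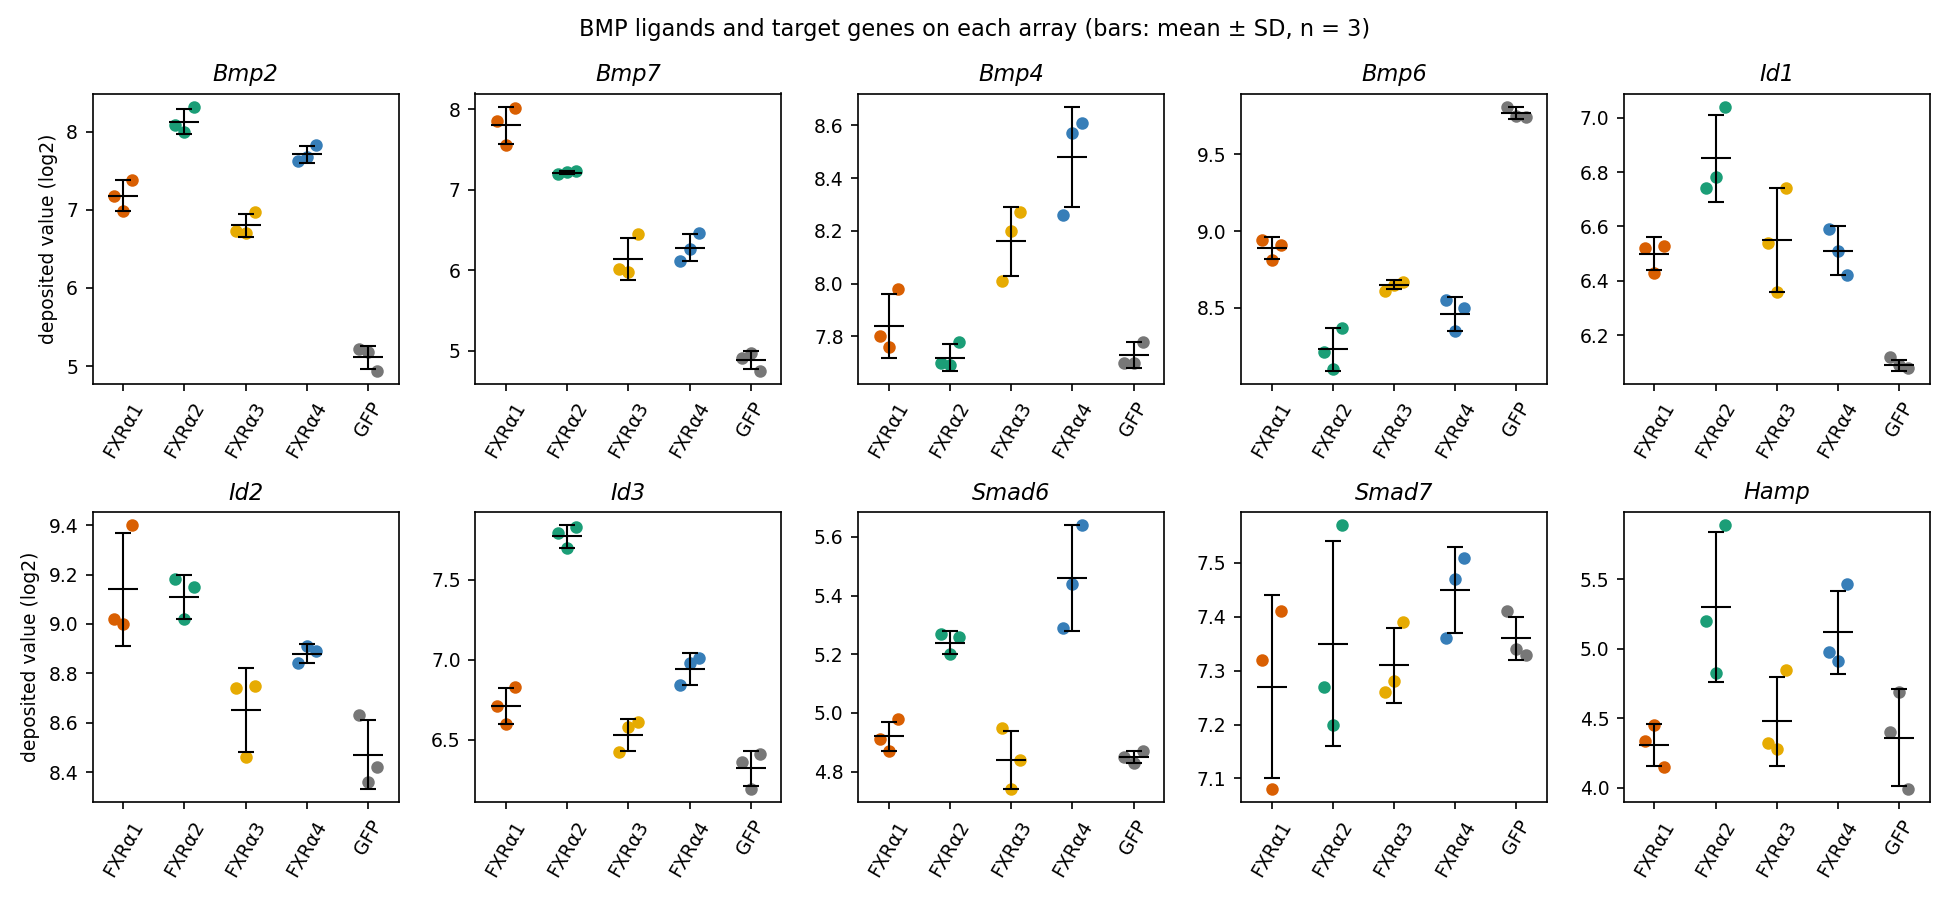
Deposited log2 value (vertical axes) of each of the 10 genes on each array, by adenovirus group (horizontal axes); points are arrays and bars are mean ± SD, n = 3. Bmp2 lies between 6.70 and 8.32 on the isoform arrays and between 4.94 and 5.22 on the GFP arrays, while Smad7 overlaps between all groups.

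Bmp2 and Bmp7 were higher with every isoform than with GFP, but the isoforms ranked differently for each. Bmp2 encodes a ligand best known from bone and heart formation and, in liver, from iron control. Its values were 7.18, 6.99 and 7.38 with FXRα1, 8.08, 8.0 and 8.32 with FXRα2, 6.73, 6.70 and 6.97 with FXRα3, and 7.62, 7.67 and 7.83 with FXRα4, against 5.22, 5.18 and 4.94 with GFP. The 5 groups did not overlap anywhere, in the order FXRα2, FXRα4, FXRα1, FXRα3 and GFP. The differences from GFP were 2.07, 3.02, 1.69 and 2.59 with FXRα1, FXRα2, FXRα3 and FXRα4 (log2, SE 0.11, n = 3 per group), which are 4.20-fold, 8.12-fold, 3.22-fold and 6.04-fold.

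Bmp7, a ligand known from kidney and eye formation, read 7.85, 7.55 and 8.01 with FXRα1, 7.19, 7.22 and 7.23 with FXRα2, 6.01, 5.98 and 6.45 with FXRα3, and 6.11, 6.26 and 6.46 with FXRα4, against 4.91, 4.97 and 4.75 with GFP. Here FXRα1 stood highest and FXRα2 next, both clear of FXRα4 and FXRα3, whose arrays overlapped, and all isoform arrays lay above the GFP arrays. The differences from GFP were 2.92, 2.33, 1.26 and 1.40 with FXRα1, FXRα2, FXRα3 and FXRα4 (log2, SE 0.13), or 7.57-fold, 5.04-fold, 2.40-fold and 2.64-fold. The dimmer Bmp7 probe set showed none of this: it stayed between 3.27 and 3.71 on all 15 arrays, at the 16th percentile of genes, with differences from GFP of −0.081, −0.052, 0.11 and 0.078 in the same isoform order (SE 0.083). The Bmp7 values therefore rest on 1 of its 2 probe sets.

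Bmp6, the main BMP of iron regulation, moved against those 2 ligands and fell with every isoform. Its values were 8.94, 8.81 and 8.91 with FXRα1, 8.21, 8.10 and 8.37 with FXRα2, 8.61, 8.65 and 8.67 with FXRα3, and 8.55, 8.35 and 8.50 with FXRα4, against 9.81, 9.75 and 9.74 with GFP. Every isoform array lay below every GFP array, and only FXRα4 and FXRα2 overlapped. Bmp6 fell by 0.88 with FXRα1 (SE 0.07, limma with Benjamini-Hochberg adjustment over all genes, adjusted p = 4.34e-09), by 1.54 with FXRα2 (7.37e-14), by 1.12 with FXRα3 (1.22e-10) and by 1.30 with FXRα4 (1.49e-12). On the linear scale this left 0.543, 0.344, 0.460 and 0.405 of the GFP level in that order. The call held in all 16 alternative settings of each comparison.

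In bulk RNA, fewer cells of a type and less RNA per cell cannot be told apart. The 9 sinusoidal endothelial markers averaged below the median gene, except Cdh5 (6.07). Their summed linear level was 324 to 353 with FXRα1, 293 to 346 with FXRα2, 286 to 320 with FXRα3 and 281 to 294 with FXRα4, against 312 to 332 with GFP. Bmp6 was lower with every isoform. The endothelial sum overlapped the GFP range with FXRα1, FXRα2 and FXRα3, and lay below it with FXRα4. Single markers passing the test against GFP numbered 1 higher and 0 lower with FXRα1, 1 and 1 with FXRα2, 0 and 1 with FXRα3, and 0 and 2 with FXRα4, of 9. Of all genes, 8.42%, 17.5%, 7.45% and 18% were higher with FXRα1 to FXRα4, and 4%, 16.7%, 6.62% and 15.7% lower. Nothing particular to the endothelial markers is read from these counts. The part of endothelial cells in the Bmp6 result was not tested.

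Bmp4, a ligand made by many mesenchymal and some epithelial cells, rose only with the 2 isoforms of the longer N-terminus in the tests against GFP. It read 7.80, 7.76 and 7.98 with FXRα1, 7.70, 7.69 and 7.78 with FXRα2, 8.01, 8.20 and 8.27 with FXRα3, and 8.26, 8.57 and 8.61 with FXRα4, against 7.70, 7.70 and 7.78 with GFP. The FXRα3 and FXRα4 arrays lay above all others and overlapped each other, while FXRα2 and GFP covered the same range. Bmp4 rose by 0.43 with FXRα3 (SE 0.09, limma adjusted p = 0.00112) and by 0.75 with FXRα4 (3.46e-07). With FXRα1 and FXRα2 the differences were 0.11 (0.512) and −0.01 (0.954), and after median centring the FXRα2 value was −0.23 (0.0075). The direct comparisons gave the same split: Bmp4 was higher by 0.32 with FXRα3 than with FXRα1 (0.028), and by 0.76 with FXRα4 than with FXRα2 (7.97e-07). The call for FXRα3 against FXRα1 was lost with no mean-variance trend (0.32, 0.0625). It was also lost without FXRα1 replicate 1, FXRα1 replicate 2, FXRα3 replicate 2 or FXRα3 replicate 3, at 0.29, 0.28, 0.30 and 0.26.

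The 8 stellate and fibroblast markers averaged below the median gene, except Reln (6.43). Their sums lay at 227 to 237 with FXRα1, 248 to 258 with FXRα2, 226 to 235 with FXRα3 and 264 to 303 with FXRα4, against 228 to 240 with GFP. The higher sums with FXRα2 and FXRα4 went with Reln, the only one of the 8 that rose, by 0.55 and 0.97, while the list medians were −0.06 and −0.03. Acta2 fell by 0.34 with FXRα4 (limma adjusted p = 0.0354), a call lost without FXRα4 replicate 2 or 3 or any single GFP array (−0.34, −0.21, −0.34, −0.33 and −0.35). Their part in the Bmp4 result was not tested.

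Among the target genes, Id1, Id2 and Id3 rose in more comparisons with GFP than Smad6, Smad7 or Hamp. Id1 was higher with all 4 isoforms, Id2 with 3 and Id3 with 3. Id3 had the largest change: it read 6.71, 6.60 and 6.83 with FXRα1, 7.79, 7.70 and 7.83 with FXRα2, 6.42, 6.58 and 6.61 with FXRα3, and 6.84, 6.98 and 7.01 with FXRα4, against 6.36, 6.19 and 6.41 with GFP. FXRα2 stood clear of the rest and FXRα4 came next, while FXRα1 and FXRα3 overlapped. Id3 rose by 1.46 with FXRα2 (2.74-fold, SE 0.09, limma adjusted p = 1.66e-11), by 0.63 with FXRα4 (7.12e-06) and by 0.40 with FXRα1 (0.00397). With FXRα3 the difference was 0.21 (0.137), which passed only after 75th percentile centring (0.22, 0.0461).

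Id1, the classical early BMP target, read 6.52, 6.43 and 6.53 with FXRα1, 6.74, 6.78 and 7.04 with FXRα2, 6.54, 6.36 and 6.74 with FXRα3, and 6.59, 6.51 and 6.42 with FXRα4, against 6.12, 6.09 and 6.08 with GFP. All 12 isoform arrays lay above the 3 GFP arrays, and FXRα1, FXRα3 and FXRα4 covered the same range. Id1 rose by 0.76 with FXRα2 (SE 0.10, limma adjusted p = 2.81e-06), 0.45 with FXRα3 (0.00322), 0.41 with FXRα4 (0.00264) and 0.40 with FXRα1 (0.00967). After median centring the FXRα4 call was lost (0.20, 0.0578).

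Id2, the brightest member, read 9.02, 9.0 and 9.40 with FXRα1, 9.18, 9.02 and 9.15 with FXRα2, 8.74, 8.46 and 8.75 with FXRα3, and 8.84, 8.91 and 8.89 with FXRα4, against 8.63, 8.36 and 8.42 with GFP. FXRα1 and FXRα2 overlapped at the top, and FXRα3 overlapped GFP. Id2 rose by 0.67 with FXRα1 (SE 0.09, limma adjusted p = 2.23e-05), 0.65 with FXRα2 (9.44e-06) and 0.41 with FXRα4 (0.00133), against 0.18 with FXRα3 (0.271).

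The inhibitory Smads separated. Smad6, which blocks BMP signalling at the receptor, read 4.91, 4.87 and 4.98 with FXRα1, 5.27, 5.20 and 5.26 with FXRα2, 4.95, 4.74 and 4.84 with FXRα3, and 5.29, 5.44 and 5.64 with FXRα4, against 4.85, 4.83 and 4.87 with GFP. FXRα4 was highest and FXRα2 next, with no overlap, and FXRα3 covered the GFP range. It rose by 0.61 with FXRα4 (SE 0.10, limma adjusted p = 5.92e-05) and by 0.39 with FXRα2 (0.00467, lost after median centring at 0.17, 0.143). The differences with FXRα1 and FXRα3 were 0.07 (0.789) and −0.01 (0.988).

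Smad7, which also restrains TGF-beta receptors, passed the test with none of the isoforms: its differences from GFP were −0.09, −0.01, −0.05 and 0.09 with FXRα1 to FXRα4 (limma adjusted p = 0.682, 0.949, 0.883 and 0.539). The single-gene 95% intervals ran from −0.286 to 0.109 for FXRα1, −0.208 to 0.187 for FXRα2, −0.244 to 0.152 for FXRα3 and −0.108 to 0.288 for FXRα4. Group means lay between 7.27 and 7.45, and all neighbouring groups overlapped. After median centring the FXRα2 value became −0.23 (0.00692).

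Hamp rose with FXRα2 and FXRα4, the isoforms without the insert, and was the most variable member. It read 4.34, 4.45 and 4.15 with FXRα1, 5.20, 4.83 and 5.89 with FXRα2, 4.32, 4.28 and 4.85 with FXRα3, and 4.98, 4.91 and 5.47 with FXRα4, against 4.40, 4.69 and 3.99 with GFP. FXRα2 and FXRα4 overlapped each other and lay above all GFP arrays, while FXRα1 and FXRα3 overlapped GFP. The rises were 0.94 with FXRα2 (SE 0.22, limma adjusted p = 0.00143) and 0.76 with FXRα4 (0.00866), and the differences with FXRα1 and FXRα3 were −0.05 (0.941) and 0.12 (0.856). The FXRα2 call held in all 16 alternative settings, between 0.61 and 1.18, whereas the FXRα4 call was lost without FXRα4 replicate 3 (0.58, 0.0648) or without GFP replicate 3 (0.57, 0.0721). The near-identical gene Hamp2, whose probes may share signal with Hamp, read 0.32, 0.30, 0.18 and 0.18 above GFP with FXRα1 to FXRα4 and did not pass (0.169, 0.11, 0.535 and 0.378).

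**Figure D2:**
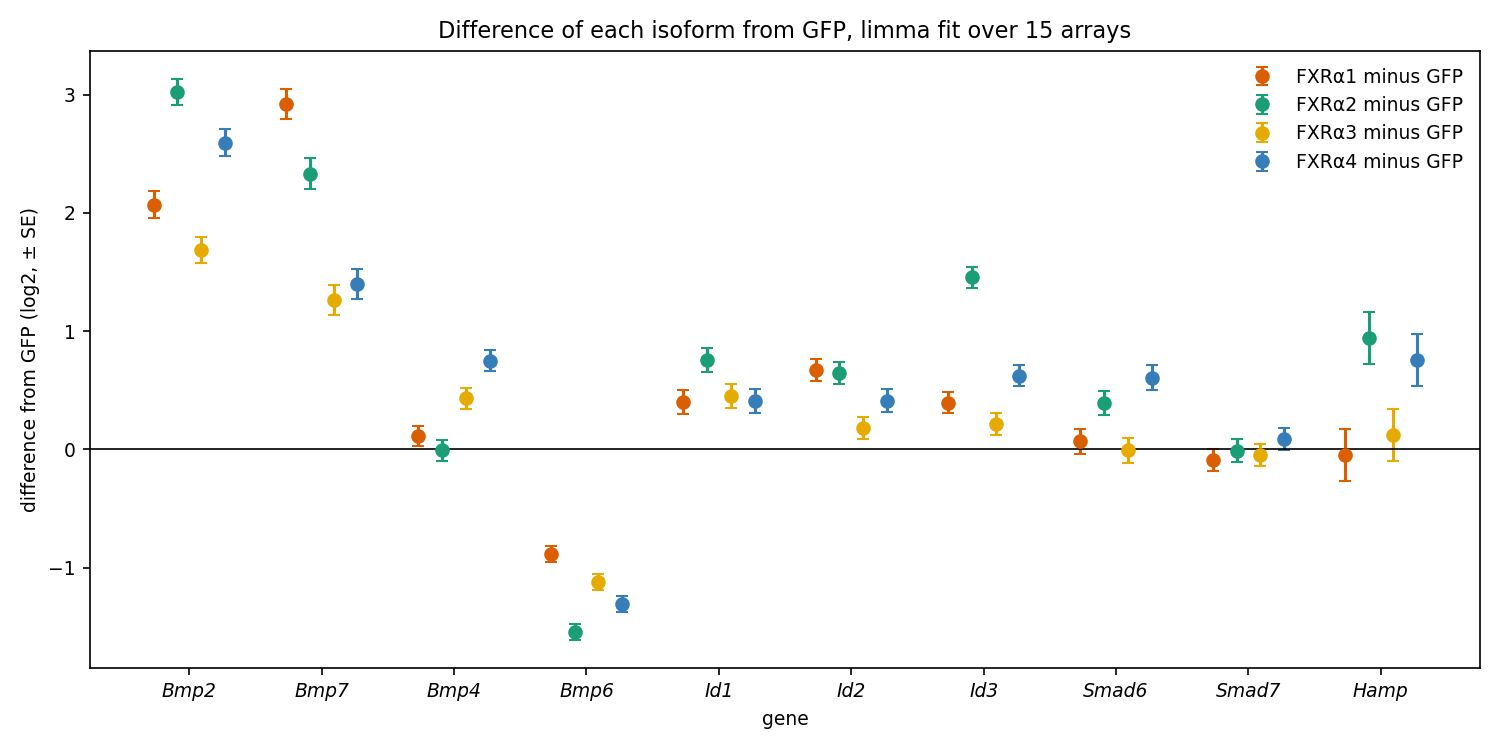
Difference from GFP (vertical axis, log2) of each gene (horizontal axis) with each isoform; points are fitted differences and bars are ± SE from the limma fit over 15 arrays. Bmp2 and Bmp7 lie between 1.26 and 3.02, Bmp6 lies between −1.54 and −0.88, and the targets between −0.09 and 1.46.

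Counted over the 8 genes tested, FXRα1 changed 4 genes (3 higher, 1 lower), while 12.4% of all 18820 genes passed (8.42% higher, 4% lower). FXRα2 changed 6 genes (5 higher, 1 lower), while 34.3% of all genes passed (17.5% higher, 16.7% lower). FXRα3 changed 3 (2 higher, 1 lower), while 14.1% of all genes passed (7.45% higher, 6.62% lower). FXRα4 changed 7 (6 higher, 1 lower), while 33.8% of all genes passed (18% higher, 15.7% lower). In each comparison the gene that fell was Bmp6. The median difference of the 8 was 0.09, 0.52, 0.15 and 0.51 with FXRα1 to FXRα4, beside medians over all genes of 0.004, −0.048, −0.003 and −0.027. The 4 comparisons share the GFP arrays, so their values stand side by side and are not independent of each other.

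Whether the targets followed the ligands was read from the order of the 5 group means. Id3 had the same order as Bmp2, namely FXRα2, FXRα4, FXRα1, FXRα3 and GFP, although its FXRα1 and FXRα3 arrays overlapped. Id2 had the same order as Bmp7, namely FXRα1, FXRα2, FXRα4, FXRα3 and GFP, but that order is loose. For Id2, FXRα2 differed from FXRα1 by −0.03 (limma adjusted p = 0.871), a value of 0.10 without FXRα1 replicate 3 and 0.02 without FXRα2 replicate 2, and FXRα3 overlapped GFP. For Bmp7, FXRα4 against FXRα3 ran from −0.04 to 0.29 over the alternative settings. Hamp shared the top pair of Bmp2, FXRα2 before FXRα4, but its FXRα1 mean of 4.31 was no higher than its GFP mean of 4.36, at a Bmp2 mean 2.07 above GFP. Smad6 ranked FXRα4 first, as Bmp4 did, yet FXRα3, which had the next Bmp4 mean, gave the lowest Smad6 mean. Id1, Id3 and Hamp came near the reverse of Bmp6 (FXRα2, FXRα4, FXRα3, FXRα1 and GFP). Id1 departed from it by FXRα4 against FXRα3 (−0.04, overlapping) and Hamp by FXRα1 against GFP (−0.05, overlapping). Id3 departed from it by FXRα3 against FXRα1 (−0.18, limma adjusted p = 0.291, overlapping). Bmp2 departed by that same pair (−0.39, no overlap), so the order of Id3 lay close to Bmp2 and to the reverse of Bmp6 alike. For Smad7 no neighbouring groups were apart, so its order carries no information.

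The sizes also differed. FXRα1 cells had a Bmp7 mean 2.92 above GFP and a Bmp2 mean 2.07 above it, with no passing change in Smad6, Smad7 or Hamp and Id rises of 0.40 to 0.67. FXRα3 cells, with Bmp2 1.69 and Bmp7 1.26 above GFP, changed 1 of the 6 targets, Id1. FXRα2 and FXRα4 cells, with the highest Bmp2, changed 5 of the 6 targets, all but Smad7, with Smad6 (FXRα2) and Id1 (FXRα4) lost after median centring. The share of all genes that passed differed in the same way, at 12.4%, 34.3%, 14.1% and 33.8% for FXRα1 to FXRα4, so nothing particular to the BMP targets is read from these counts. These orders rest on 5 group means and are a description. The values do not show whether the secreted ligands reached their receptors, since mRNA alone was measured.

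**Figure D3:**
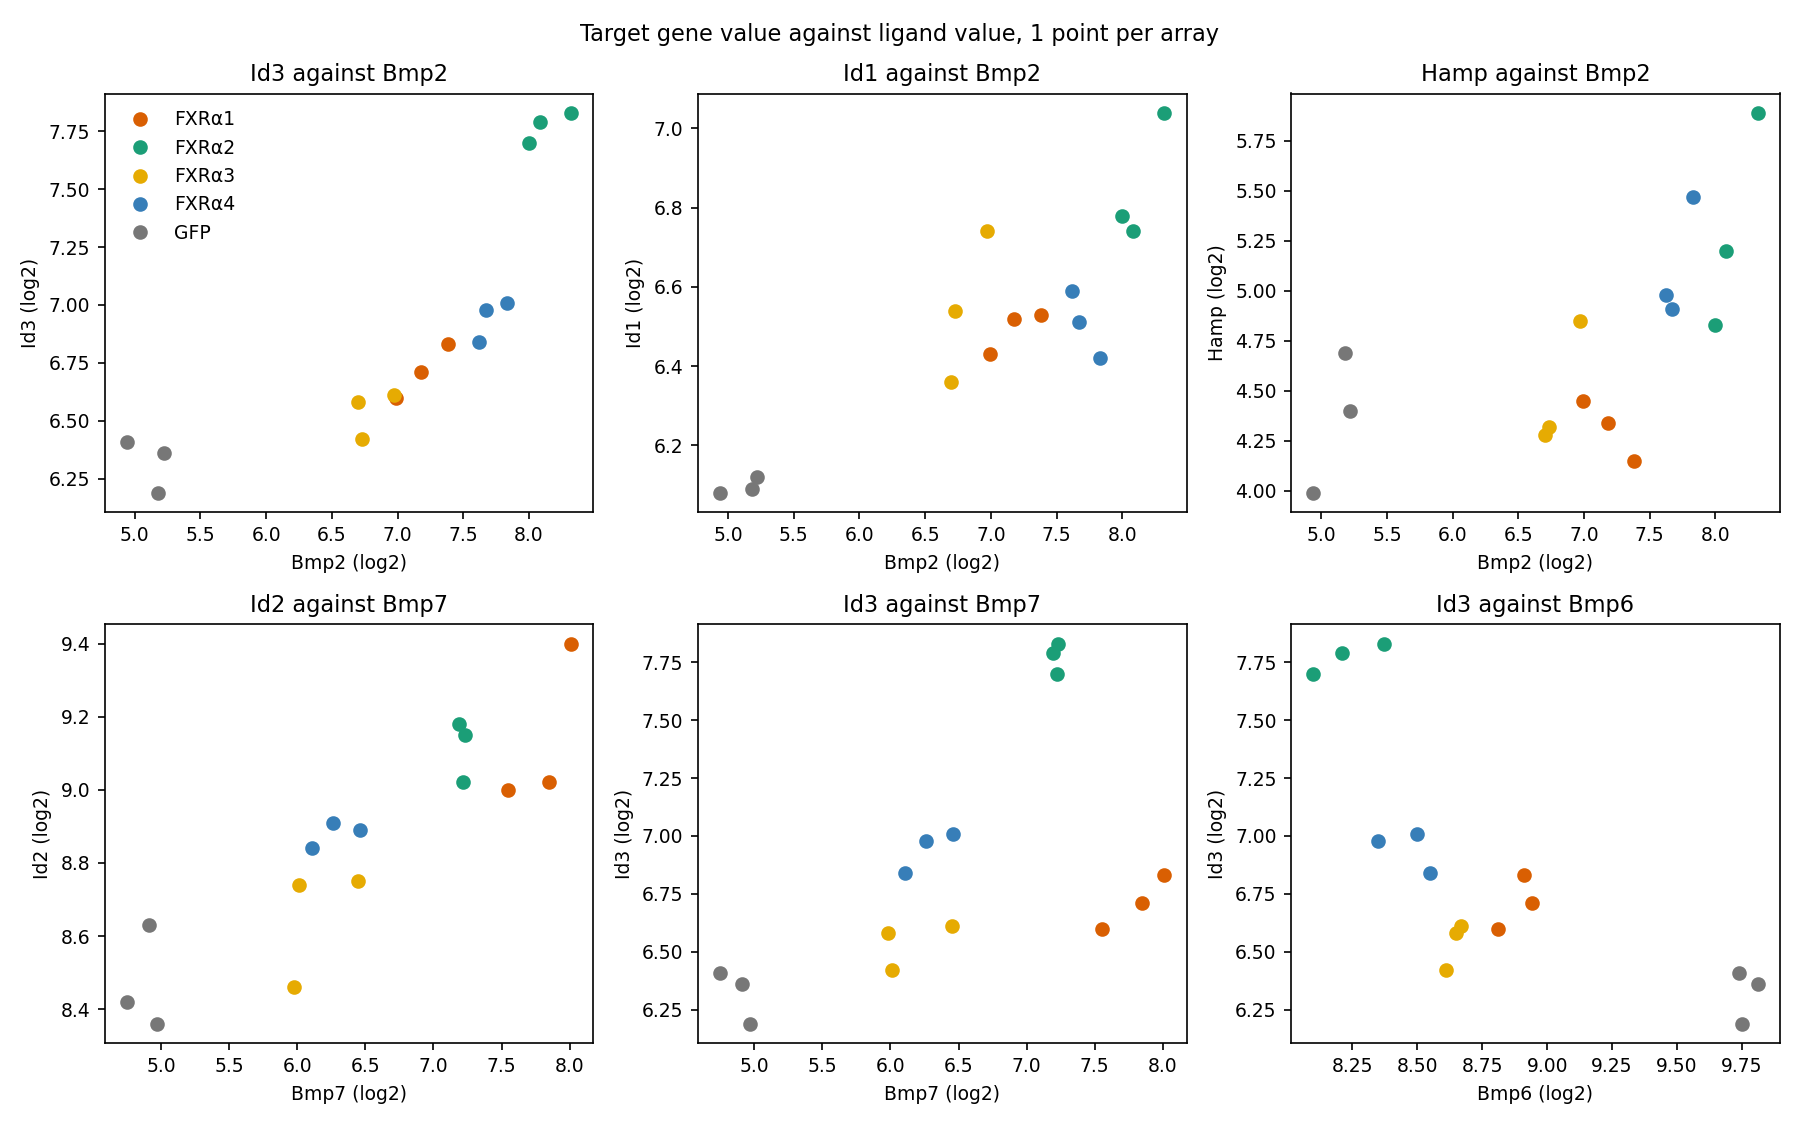
Value of a target gene (vertical axes, log2) against that of a ligand gene (horizontal axes, log2), 1 point per array, coloured by adenovirus group. Id3 against Bmp2 puts the FXRα2 arrays at the upper end of both axes (Id3 7.70 to 7.83) and the GFP arrays at the lower end (Id3 6.19 to 6.41), while FXRα1 and FXRα3 arrays lie close together.

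Comparing the isoforms with each other asks which differences go with the insert and which with the N-terminus. Without the insert on the shorter N-terminus (FXRα2 against FXRα1), Bmp2 was higher by 0.95 (SE 0.11) and Bmp7 lower, at −0.59 (SE 0.13). Of the 8 genes tested 4 were higher and 1 lower, while 31.3% of all genes passed (14.1% higher, 17.1% lower). Id3 was higher by 1.06 (SE 0.09, limma adjusted p = 4.89e-09), Hamp by 0.99 (SE 0.22, 0.00106), Id1 by 0.36 (0.00886) and Smad6 by 0.32 (0.02), and Bmp6 was lower, at −0.66 (7.77e-08). The Id1 call was lost without FXRα2 replicate 3 (0.27, 0.0653), and the Smad6 call in 5 of 16 settings, among them without FXRα1 replicate 2 (0.30, 0.0578) and without FXRα2 replicate 1 (0.31, 0.0627).

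On the longer N-terminus (FXRα4 against FXRα3), Bmp2 was higher by 0.91 and Bmp7 differed by 0.13. Again 4 of the 8 were higher and 1 lower, while 29.5% of all genes passed (15.8% higher, 13.8% lower). Smad6 was higher by 0.61 (SE 0.10, limma adjusted p = 6.85e-05), Id3 by 0.41 (0.00111), Bmp4 by 0.32 (0.00687) and Hamp by 0.63 (0.0308), and Bmp6 was lower, at −0.18 (0.0469). The calls of Hamp and Bmp6 were each lost in 7 of 16 settings. Without FXRα3 replicate 1, FXRα3 replicate 2 or FXRα4 replicate 3, Hamp stood at 0.55, 0.53 and 0.46 (0.119, 0.131 and 0.175). Bmp6 stood at −0.20, −0.18, −0.17, −0.12 and −0.20 without FXRα3 replicate 1, FXRα3 replicate 2, FXRα3 replicate 3, FXRα4 replicate 2 and FXRα4 replicate 3. The Bmp4 call was lost without FXRα3 replicate 1 (0.24, 0.0618) or FXRα4 replicate 3 (0.26, 0.0533), and after median centring (0.15, 0.0855). The count of 5 genes called fell to 2 without FXRα3 replicate 1 or FXRα4 replicate 3 and to 3 without FXRα3 replicate 2. With the replicate number as a block, Id2 passed too (0.23, adjusted p = 0.0221, against 0.0725 without the block).

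**Figure D4:**
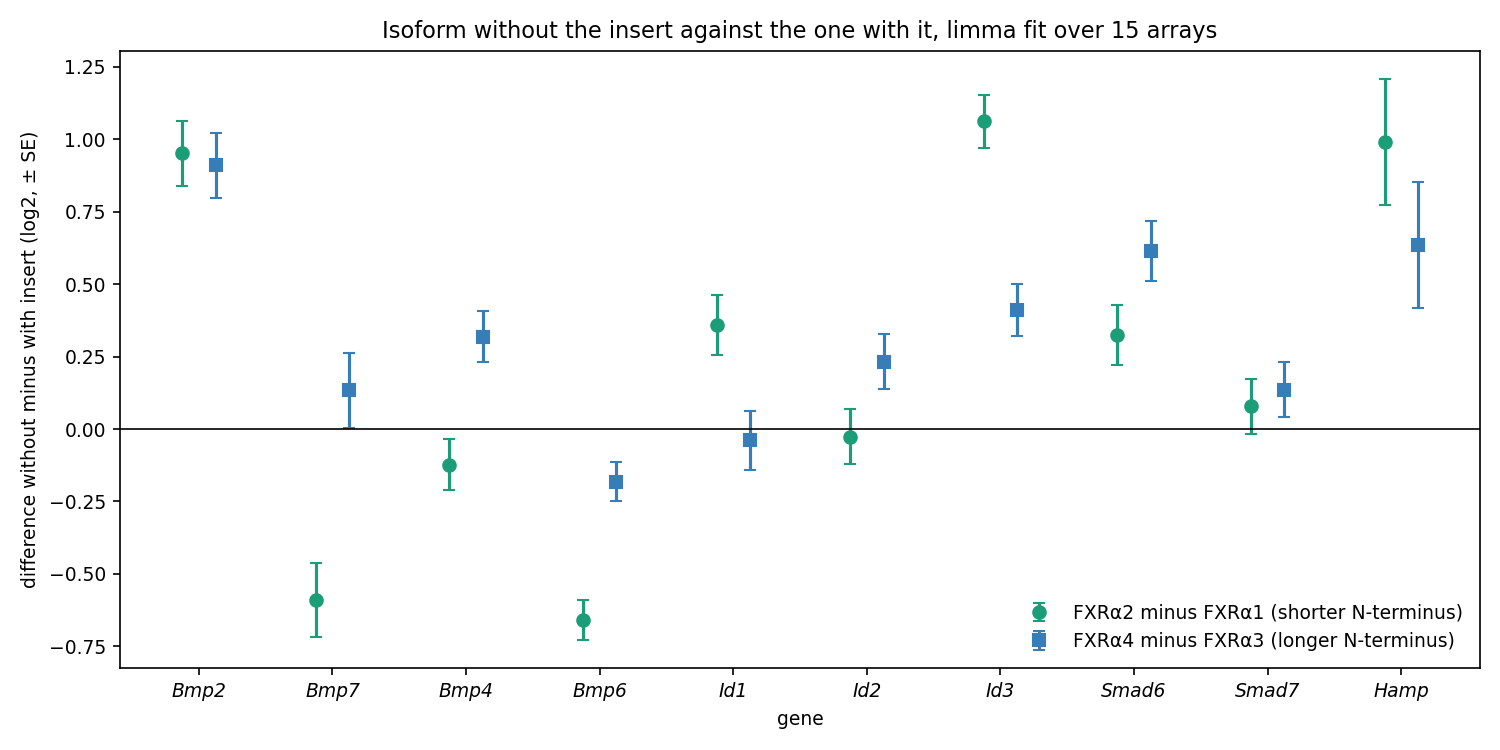
Difference of the isoform without the insert from the one with it (vertical axis, log2) for each gene (horizontal axis); points are fitted differences, bars are ± SE, and the 2 series are FXRα2 minus FXRα1 and FXRα4 minus FXRα3. Bmp2 differs by 0.95 and 0.91, Id3 by 1.06 and 0.41, and Bmp6 by −0.66 and −0.18.

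The difference made by the insert was itself tested between the N-termini, as FXRα4 minus FXRα3 less FXRα2 minus FXRα1. For Bmp2 this interaction was −0.04 (SE 0.16) and for Bmp7 0.72 (SE 0.18). Of the 8 genes 3 passed, while 12.9% of all genes did (7.24% higher, 5.63% lower). They were Id3, whose gain without the insert was smaller on the longer N-terminus (−0.65, SE 0.13, limma adjusted p = 0.00132), Bmp6, whose drop was smaller there (0.477, SE 0.10, 0.0016), and Bmp4, whose difference was more positive there (0.442, SE 0.12, 0.0189). The Bmp4 call was lost without FXRα1 replicate 3, FXRα3 replicate 1, FXRα4 replicate 2 or FXRα4 replicate 3. Id1 gave −0.40 (0.0773, and 0.0391 with the replicate block), and Hamp −0.36 (SE 0.31, 0.553).

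For the N-terminus with the insert present (FXRα3 against FXRα1), Bmp7 was lower, at −1.66, and Bmp2 lower, at −0.39. Of the 8 genes 1 was higher and 2 lower, while 6.86% of all genes passed (2.21% higher, 4.65% lower). Id2 was lower (−0.49, limma adjusted p = 0.00193), Bmp4 higher as above, and Bmp6 lower (−0.24, 0.0334), a call lost in 9 of 16 settings. The count of 3 fell to 1 without FXRα1 replicate 1, FXRα3 replicate 2 or FXRα3 replicate 3.

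Without the insert (FXRα4 against FXRα2), Bmp7 was lower, at −0.93, and Bmp2 at −0.43. Of the 8 genes 2 were higher and 2 lower, while 23.7% of all genes passed (11.7% higher, 12% lower). Id3 was lower (−0.83, limma adjusted p = 3.9e-07), as was Id1 (−0.35, 0.0153, lost without FXRα2 replicate 3 at −0.25 or FXRα4 replicate 3 at −0.30), while Bmp4 (0.76, 7.97e-07) and Bmp6 (0.24, 0.0123, lost without FXRα2 replicate 2 at 0.17 or FXRα4 replicate 1 at 0.19) were higher. The replicate block added Id2 (−0.23, adjusted p = 0.0267, against 0.0865).

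Other genes of the pathway were read from lists drawn up by role, of which 97 of 108 distinct symbols were measured. The lists give a few genes under both an old and a new symbol. Of 12 other BMP and GDF ligands, Bmp8a had the largest change, with rises of 2.13 with FXRα2 (SE 0.13, limma adjusted p = 1.99e-11), 1.22 with FXRα4 (1.55e-07) and 0.53 with FXRα3 (0.00761, lost without FXRα3 replicate 3 at 0.46, 0.0535). Bmp8a means were 5.10, 6.85, 5.25 and 5.94 with FXRα1 to FXRα4 and 4.72 with GFP. Its close paralog Bmp8b, whose probes may share signal with it, rose by 0.28, 0.43 and 0.29 with FXRα1, FXRα2 and FXRα4, the last lost after median centring (0.08). In all, 1, 3, 1 and 2 of the 12 rose with FXRα1 to FXRα4, and 0, 1, 0 and 1 fell, beside 8.42%, 17.5%, 7.45% and 18% of all genes higher and 4%, 16.7%, 6.62% and 15.7% lower, so the counts lie near the background.

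Of 15 receptors and co-receptors, 0, 2, 0 and 3 rose with FXRα1 to FXRα4, and 2, 4, 3 and 2 fell, where 12.4%, 34.3%, 14.1% and 33.8% of all genes changed. Hjv, the gene of hemojuvelin, the BMP co-receptor that hepatocytes need for normal Hamp levels, had the largest changes. Its means were 6.84, 8.76, 5.98 and 7.74 with FXRα1 to FXRα4 and 6.57 with GFP. It rose by 2.19 with FXRα2 (SE 0.13, limma adjusted p = 1.42e-11) and by 1.17 with FXRα4 (3e-07), fell by 0.58 with FXRα3 (0.00391), and differed by 0.27 with FXRα1 (0.233). Hjv was higher by 1.91 with FXRα2 than with FXRα1 (2.47e-10) and by 1.76 with FXRα4 than with FXRα3 (1.16e-09), and the interaction did not pass (−0.16, 0.696). Bmpr2, the type II receptor gene, fell by 0.37, 0.31 and 0.44 with FXRα1, FXRα2 and FXRα3. On the same list, Hfe means were 7.97, 7.86, 7.95 and 7.83 with FXRα1 to FXRα4 and 8.21 with GFP. The Hfe call with FXRα1 was lost without FXRα1 replicate 1 or 2 or any single GFP array. It was also lost when only the compared groups were fitted (−0.24, limma adjusted p = 0.0668). The Hfe call with FXRα3 was lost without FXRα3 replicate 2 or GFP replicate 1 (both −0.25). Neo1 means were 10.22, 9.72, 10.34 and 10.18 with FXRα1 to FXRα4 and 10.2 with GFP.

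**Figure D5:**
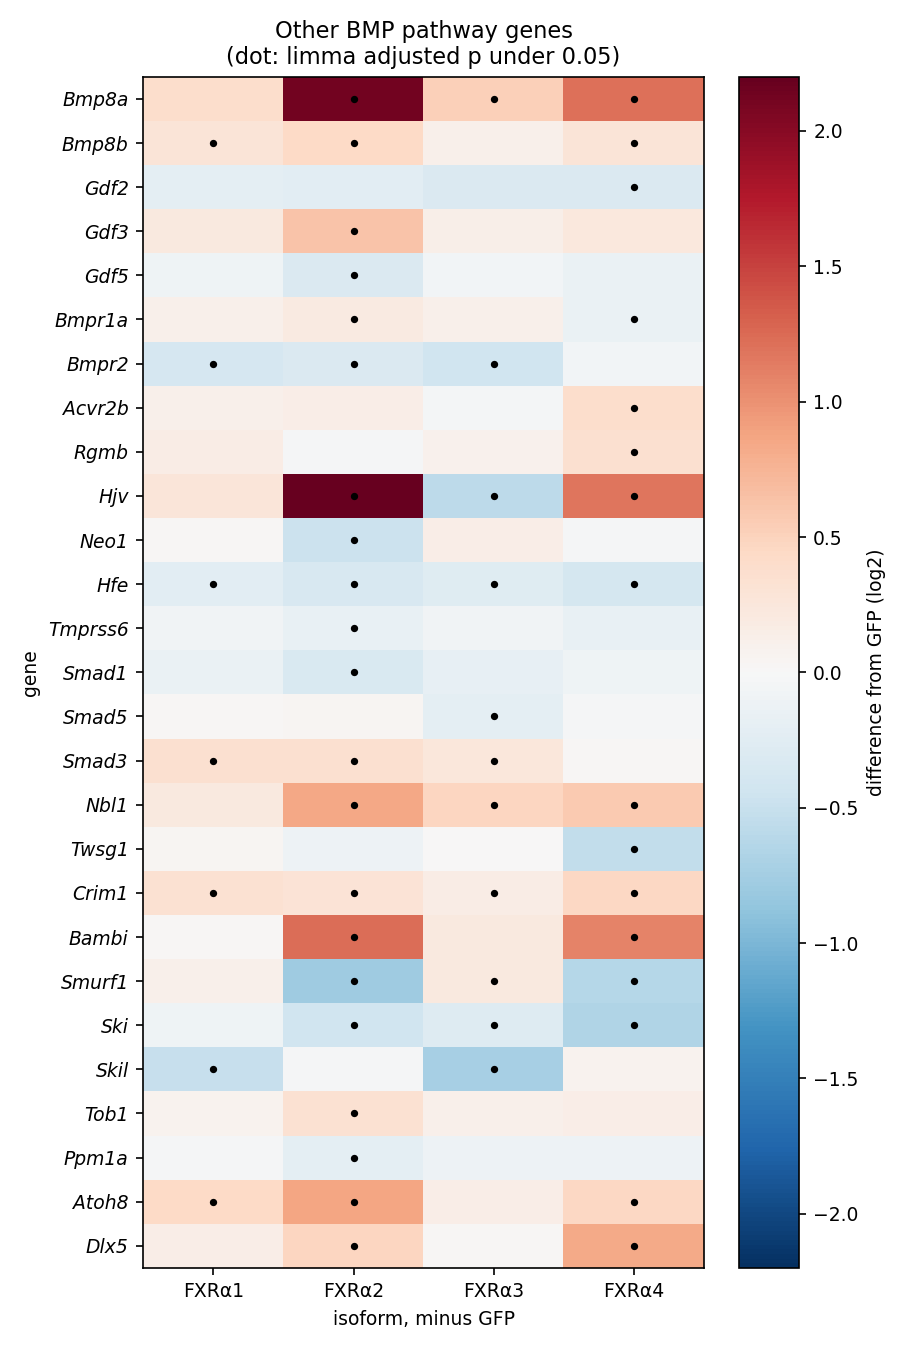
Difference from GFP (colour, log2) of other BMP pathway genes (rows) with each isoform (columns); a dot marks a limma adjusted p under 0.05. Hjv and Bmp8a carry the strongest colours with FXRα2 (2.19 and 2.13) and FXRα4 (1.17 and 1.22), and Smurf1 is lower in both (−0.79 and −0.62).

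Of 9 other BMP target genes, 1, 3, 0 and 3 rose with FXRα1 to FXRα4, where 8.42%, 17.5%, 7.45% and 18% of all genes rose, and 0 fell, with list medians of 0.05, 0.30, 0.08 and 0.25 beside the all-gene medians given above. Bambi, a decoy receptor that is also a pathway inhibitor, rose by 1.23 with FXRα2 (SE 0.12, limma adjusted p = 1.74e-08) and 1.09 with FXRα4 (1.06e-07). Atoh8, a bHLH factor reported to act on the Hamp promoter, rose by 0.44, 0.87 and 0.46 with FXRα1, FXRα2 and FXRα4 (0.00332, 2.78e-07 and 0.000692), the last lost after median centring (0.25, 0.0539). Dlx5 rose by 0.48 with FXRα2 (lost after median centring) and 0.84 with FXRα4, and Id4, Msx1, Msx2, Hey1 and Smad9 passed with none.

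Of 10 intracellular and membrane inhibitors, which include Bambi, 0, 2, 1 and 1 rose with FXRα1 to FXRα4 and 1, 3, 2 and 2 fell, where 12.4%, 34.3%, 14.1% and 33.8% of all genes changed. Smurf1, a ubiquitin ligase for BMP Smads, fell by 0.79 with FXRα2 (limma adjusted p = 4.7e-10) and 0.62 with FXRα4 (2.1e-08), but rose by 0.22 with FXRα3 (0.0151), a call lost without FXRα3 replicate 3 or GFP replicate 2 (both 0.20). Skil, a Smad corepressor gene, fell by 0.50 with FXRα1 (1.75e-07) and 0.73 with FXRα3 (7.11e-10), and the related gene Ski fell by 0.44, 0.29 and 0.67 with FXRα2, FXRα3 and FXRα4. Of 14 extracellular antagonists, 1, 2, 2 and 2 rose with FXRα1 to FXRα4 and 0, 0, 0 and 1 fell, beside those same shares. Nbl1 rose by 0.85 with FXRα2 (1.69e-05) and 0.57 with FXRα4 (0.00132). It also rose with FXRα3 (mean 6.11 against 5.62 with GFP), a call lost without FXRα3 replicate 2 (0.46, 0.0529). Crim1 means were 10.06, 10.02, 9.88 and 10.17 with FXRα1 to FXRα4 and 9.72 with GFP. After median centring its FXRα2 and FXRα3 calls were lost (0.08 and 0.12). The FXRα3 call of Crim1 was also lost with no mean-variance trend (0.16, limma adjusted p = 0.114). Leaving out any single FXRα3 array, GFP replicate 1 or GFP replicate 3 lost it too. Twsg1 fell by 0.55 with FXRα4 (7.14e-09). Of 6 Smad genes of the receptor-activated and common classes, Smad1 fell by 0.34 with FXRα2 (0.00102), and Smad3, a TGF-beta Smad, rose by 0.35, 0.35 and 0.25 with FXRα1, FXRα2 and FXRα3, where the FXRα2 call was lost after median centring (0.13, 0.0551).

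Hamp also answers to interleukin-6 through STAT3. Of 10 genes on that route, 1, 6, 2 and 3 rose with FXRα1 to FXRα4 and 0, 2, 4 and 3 fell, where 12.4%, 34.3%, 14.1% and 33.8% of all genes changed. Socs3, a feedback target of STAT3, rose by 1.36 with FXRα2 (SE 0.11, limma adjusted p = 2.24e-09), 0.80 with FXRα4 (5.26e-06), 0.63 with FXRα3 (0.000361) and 0.41 with FXRα1 (0.0188, lost without FXRα1 replicate 1, GFP replicate 1 or GFP replicate 3, at 0.32, 0.40 and 0.34). The receptor genes moved the other way: Il6ra fell by 0.97 with FXRα4 (6.04e-10) and by 0.30 with FXRα3 (0.00657, lost without FXRα3 replicate 1 at −0.24, 0.0604), and Il6st fell by 0.35, 0.18 and 0.24 with FXRα2, FXRα3 and FXRα4. The acute phase genes Fga and Crp split: Fga rose by 1.06 and 0.48 with FXRα2 and FXRα4, while Crp rose by 0.50 with FXRα2 and fell by 0.43 and 0.42 with FXRα3 and FXRα4. Their part in the Hamp result was not tested.

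By the root mean square difference between the 5 group means, each gene first set to its own mean over the groups, the genes most like Bmp2 were Abcb1a (0.13), Hspa2 (0.26), Tc2n (0.31), Stc2 (0.34) and Insm1 (0.36). Those most like Bmp7 were Adssl1 (0.27), Rflnb (0.36), Fam83f (0.45), Inhbc (0.50) and Rragd (0.51). Predicted genes (Gm and Rik names) were passed over in both lists, whereas the ranks that follow count all genes. By the same measure Id3 was the target nearest to Bmp2 (0.69, rank 200) and Id2 the one nearest to Bmp7 (0.75, rank 108), while Bmp2 and Bmp7 differed from each other by 0.69. Bmp6 stood near the far end of both rankings, at 18801 for Bmp2 and 18785 for Bmp7. The measure weighs the size of a change as well as its order, so targets with small changes rank behind genes that moved as far as the ligands.

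Other cell types were checked through their markers. Of 8 Kupffer cell markers 7 averaged below the median gene, with sums of 514 to 615, 628 to 669, 531 to 563 and 463 to 579 with FXRα1 to FXRα4 and 549 to 607 with GFP. Cholangiocyte markers moved most: the sum of 5 was 1975 to 2079, 1497 to 1854, 2529 to 2813 and 1569 to 1772 with FXRα1 to FXRα4, against 893 to 988 with GFP. Krt7 and Cldn7 averaged below the median gene, and Krt19 differed from GFP by 1.32, −1.82, 1.76 and −0.93 in the same order. Epcam differed by 0.68, 4.95, 0.74 and 4.68, and Sox9 by 0.45, 1.05, 0.63 and 1.07. The part of these cells in the BMP results was not tested.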

How the data were processed

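Total RNA was measured on 15 Affymetrix mouse arrays, 3 per adenovirus. The log2 values were deposited by the authors as a table of normalized values per probe set. The log base was inferred from their range. Affymetrix Expression Console 1.1 and PLIER are named, with no role or order, per the submitters' processing notes; for background correction, normalization and genome build the status is: not given in the sources used here. Array number limits the precision, since intensities carry no read depth.

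Of 35556 probe sets, 21218 carried 1 symbol, 1881 several and 12457 none; 21185 of those with 1 symbol matched by Entrez identifier and 0 symbols changed. The brightest probe set per gene was kept (1386 genes had several), which left 18820 genes with no filter. One limma model (version 3.58.1, under R 4.3.3) with a mean for each of the 5 groups covered all 15 arrays, with a mean-variance trend and two-sided tests. Adjusted p-values are Benjamini-Hochberg values over the 18820 genes of a comparison, and rose, fell or changed means an adjusted p under 0.05. The script was tested on simulated data. Tables and figures were made in Python 3.11.15 with matplotlib 3.10.9.

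The 10 genes, the pathway and marker lists and the tests were chosen with earlier results of these data known. Named were the 10 genes, up to 4 genes per list and comparison by smallest adjusted p, and genes asked for as a family. The 5 genes nearest to Bmp2 and to Bmp7, predicted genes passed over, were named too.

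Replicate numbers were not used as a block. Of 30 same-numbered pairs, 18 had deviations correlated above 0.1 (range −0.21 to 0.43, against −0.42 to 0.31 for other numbers). In FXRα4 against FXRα3 (0.33, 0.15 and 0.36) and FXRα4 against FXRα2 (0.13, 0.18 and 0.43) all pairs passed 0.1, a sign from the data and not from the labels, so blocked values are printed there where they change a call. The alternatives were no trend, robust hyperparameters, 3 rescalings, leaving out dim genes, every probe set, 16 added to linear values, fewer groups, the block, and leaving out each array.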

Additional observations from a re-analysis of the deposited data

Results flagged for a closer look

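For 3 genes the effect of the insert differed between the N-termini by the test of the difference itself (FXRα4 minus FXRα3, less FXRα2 minus FXRα1). The interaction was −0.65 for Id3 (limma adjusted p = 0.00132), where the differences without the insert were 0.41 on the longer and 1.06 on the shorter N-terminus. It was 0.477 for Bmp6 (0.0016), with differences of −0.18 and −0.66. It was 0.442 for Bmp4 (0.0189), with differences of 0.32 and −0.12. Over 22 alternative settings the Id3 value ran from −0.74 to −0.60 and the Bmp6 value from 0.41 to 0.55, with both calls kept, while the Bmp4 call was lost in 4 settings, each of them without a single array.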

How the results depend on the processing

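Among the 10 BMP genes, no value called in the analysis as reported changed direction in any setting. The count of BMP genes called in FXRα4 against FXRα3 was 5, and it was 3 with no mean-variance trend, 3 with median centring, and 2 to 5 when single arrays were left out. In FXRα3 against FXRα1 it was 3, and it was 1 with no trend and 1 to 2 with single arrays left out. The causes were not tested. Leaving out single arrays gave 4 of 4 in FXRα1 against GFP, 6 of 6 in FXRα2 against GFP, 3 of 3 in FXRα3 against GFP, 6 to 7 in FXRα4 against GFP, 4 to 5 in FXRα2 against FXRα1, 3 to 4 in FXRα4 against FXRα2, and 2 to 4 in the interaction. With the replicate block the counts were 4, 6, 3 and 7 against GFP for FXRα1 to FXRα4, 5 in FXRα2 against FXRα1, 6 in FXRα4 against FXRα3, 3 in FXRα3 against FXRα1, 5 in FXRα4 against FXRα2 and 4 in the interaction, and the block changed no call of the 8 genes other than those of Id2 and Id1 given above. With 16 added to the linear values, the differences from GFP with FXRα1 to FXRα4 were 1.67, 2.55, 1.33 and 2.15 for Bmp2 and 2.40, 1.85, 0.93 and 1.04 for Bmp7. Across settings, values of the 8 tested genes were judged by their call alone, whatever their size, and those of Bmp2 and Bmp7 by size alone. On that footing single-gene values stayed the same in 1423 cases, lost the call in 49, gained it in 14 and moved in 15. The 15 include the level of the dimmer Bmp7 probe set (3.49). Hamp, Smad6 and most markers of other cell types lie below the median gene, and no detection calls say which of these values exceed background.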

Other observations

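Iron handling genes beyond Hamp moved in different directions. Of 14 measured, 4, 4, 3 and 1 rose with FXRα1 to FXRα4 and 1, 1, 1 and 2 fell (limma, Benjamini-Hochberg adjustment), while 12.4%, 34.3%, 14.1% and 33.8% of all genes changed. The list count was above that share with FXRα1 and FXRα3, close to it with FXRα2 and below it with FXRα4. Hmox1, the heme oxygenase that frees iron from heme, rose by 0.67, 0.99 and 0.58 with FXRα1, FXRα2 and FXRα3. Slc39a14, an importer of zinc and of iron not bound to transferrin, rose with all 4, by 0.37, 0.71, 0.26 and 0.64. Slc40a1, the iron exporter ferroportin that hepcidin protein degrades, fell by 0.26 with FXRα2 and rose by 0.23 with FXRα1, a call lost after median centring (0.12, 0.131). Of 9 TGF-beta ligands and targets, Ccn2, a matricellular protein gene, fell with all 4 isoforms, by 0.63, 0.70, 0.60 and 0.75. Tgfb1 fell by 0.56 with FXRα1 and rose by 0.79 and 0.56 with FXRα2 and FXRα4. In all, 0, 1, 2 and 2 of the 9 rose and 4, 3, 2 and 2 fell, beside those same shares of all genes. Hes1, a bHLH repressor, rose by 0.40, 0.47, 0.42 and 0.45 with FXRα1 to FXRα4, and the E protein genes Tcf3, Tcf4 and Tcf12, whose proteins Id proteins bind, fell with FXRα2 by 0.29, 0.43 and 0.19. The tests against GFP share their control arrays.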
